A study of Caenorhabditis elegans with 30 samples.

Results

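The 33 genes described here act in the oocyte, the eggshell and the first divisions of the Caenorhabditis elegans embryo. They were chosen by gene symbol, and each symbol was matched to its WormBase gene identifier in the count table, so that the set holds 33 of the 46748 genes counted. The libraries were made from polyadenylated RNA of whole animals, hermaphrodites of the wild-type strain N2 aged 5 days, whose bacterial food carried double-stranded RNA matching 1 target gene (RNAi feeding). The 30 libraries form 10 groups of 3. In the libraries whose titles begin with ZK, the targets were C01A2.5 (tads-1), R186.7 (pnn-1), ZK795.1 (ipmk-1) and M04C9.5 (dyf-5). In the libraries whose titles begin with RM, the targets were F25H2.5 (ndk-1), F55H2.6 (clu-1), R04E5.10 (ifd-1) and F26D12.1 (fkh-7). Each prefix has its own group fed L4440, the empty feeding vector, called L4440_ZK and L4440_RM, and each treatment was compared with the L4440 group of its prefix. All groups share the strain, age, sex and tissue, and RNAi feeding lowers a transcript without removing the gene, to an extent that differs between targets.

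A C. elegans oocyte grows in the proximal gonad while it takes up yolk from the body cavity and loads the RNAs and proteins that the embryo will use before its own genome is active. Sperm entry triggers egg activation, in which the meiotic divisions are completed and cortical granules are released. A layered shell of vitelline proteins, chitin and chondroitin proteoglycans is completed around the zygote. RNA-binding proteins stored in the oocyte then decide where and when maternal messages are translated, which sets up the polarity of the embryo and the separation of germ line from soma.

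The members fall into 5 roles. The eggshell and sperm entry role has 11 genes (egg-1, egg-2, egg-6, cpg-1, cpg-2, cpg-3, gna-2, chs-1, cbd-1, perm-2 and perm-4). Egg activation has 4 (egg-3, egg-4, egg-5 and mbk-2), and rme-2 is the single yolk receptor. The oocyte RNA regulators are 7 (oma-1, oma-2, puf-5, puf-11, lin-41, cey-2 and cey-3), and the early embryo regulators are 10 (pos-1, mex-1, mex-3, mex-5, mex-6, spn-4, pie-1, nos-2, zif-1 and meg-1). All 33 passed the filter on low counts in every model. By chromosome, 10 lie on I, 5 on II, 6 on III, 8 on IV, 3 on V and 1, meg-1, on X.

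Library totals ran from 31835911 to 44987307 counts, and the biological coefficient of variation between libraries of a group was 5.42% in the ZK set and 11.7% in the RM set. The target's own transcript was lower in the libraries of 5 treatments, by 2.58 for pnn-1, 0.62 for ipmk-1, 1.96 for tads-1, 4.46 for ndk-1 and 1.08 for clu-1 on the log2 scale. It went against the label in 2 groups: dyf-5 was 4.75 higher in the libraries labelled M04C9.5, and ifd-1 was 2.01 higher in the libraries labelled R04E5.10. For fkh-7 the log2 fold change in the F26D12.1 libraries was 0.23 ± 0.15 (edgeR adjusted p = 0.999827). On the third principal component of the RM set, L4440_RM replicate 3 and F26D12.1 replicate 3 stood apart with scores of 18.6 and 20.6, while the other 13 libraries lay between -11.4 and 10.9.

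The genes differed widely in level among themselves. Levels of different genes are given as CPM, counts scaled to a common library size, per kilobase of exon, and in L4440_ZK libraries the highest was cey-2, a Y-box protein that binds stored mRNA, at 2707 ± 64.5 CPM per kb (SD, n = 3). Next came the eggshell proteoglycan gene cpg-2 at 2032 ± 111 and the vitelline layer gene perm-2 at 1602 ± 92.3. The next in order, cey-3 at 1342 ± 52.3, pos-1 at 1281 ± 66.0 and perm-4 at 1233 ± 97.6 CPM per kb, lay within their spread of each other. At the low end stood the paralogs egg-5 at 55.6 ± 2.26 and egg-4 at 54.5 ± 2.91 CPM per kb, which lay within their spread of each other too. Even egg-4 was above 88.0% of all genes with at least 1 count on this scale.

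In C01A2.5 RNAi animals 31 of the 33 genes fell, with falls in each of the 5 roles, and 2 rose. In RNA of whole animals, fewer germ cells or embryos and less RNA in each of them cannot be told apart. The falls ran from -0.72 for mbk-2 to -1.73 for egg-2 on the log2 scale, and the summed level of the 33 genes was 15697, 16858 and 17043 CPM in the C01A2.5 libraries, against 32244, 33618 and 34923 CPM in the L4440_ZK libraries. The 2 that rose were perm-2 and perm-4, neighbours on chromosome IV. This treatment changed most of the transcriptome: 88.1% of the 16495 genes tested passed an adjusted p of 0.05, with 36.4% lower and 51.7% higher. The median log2 fold change was -1.39 over the members and 0.42 over all genes. For each of the 33 genes the C01A2.5 libraries did not overlap the L4440_ZK libraries. The share of all genes without such overlap was not computed, so nothing particular to the members is read from this.

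**Figure D1:**
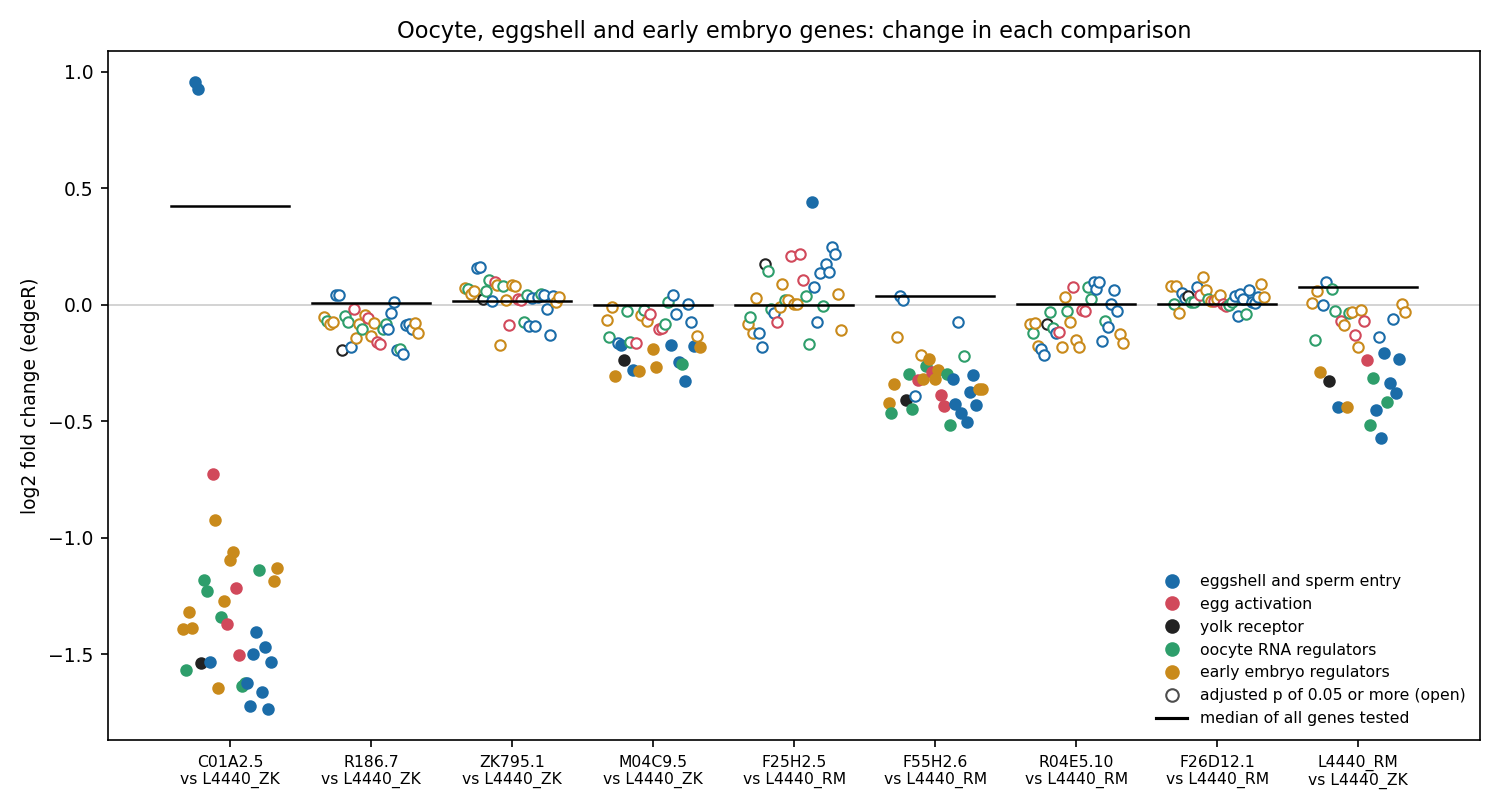
Log2 fold change (y axis) of each of the 33 genes in each comparison (x axis), coloured by role. Filled points had an edgeR adjusted p under 0.05, open points did not, and the black line is the median of all genes tested. In the C01A2.5 comparison 31 points lie between -1.73 and -0.72 and 2 lie above 0.9, in the F55H2.6 comparison 26 filled points lie below 0, and in the other RNAi comparisons most or all points are open.

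Among the genes of the eggshell, egg-2 fell furthest. Together with its paralog egg-1 it codes for a membrane protein with LDL receptor repeats that the oocyte needs for sperm entry. It had 144, 171 and 163 CPM in the C01A2.5 libraries, against 543, 519.8 and 515 CPM in the L4440_ZK libraries, a log2 fold change of -1.73 ± 0.058 (edgeR adjusted p = 1.33e-22). Transcripts of egg-1 stood at 351, 397 and 399.5 CPM in C01A2.5 libraries and 1014, 1026 and 1113 CPM in L4440_ZK libraries (-1.47 ± 0.064). Every treated library lay below every control, and since the paralogs share sequence, reads may have been divided between them. The chitin synthase gene chs-1, which makes the middle layer of the shell, had 223, 254 and 261 CPM in C01A2.5 libraries, against 809, 786 and 822 CPM in L4440_ZK libraries (-1.72 ± 0.066). Its supplier gna-2, an enzyme that makes the sugar precursor of chitin, had 93.5, 108 and 104 CPM in the C01A2.5 group, against 287, 294 and 276 CPM in the L4440_ZK group, and the log2 fold change was -1.50 ± 0.050 (edgeR adjusted p = 1.48e-22). Transcripts of both enzymes were lower in each treated library than in each control.

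The chondroitin proteoglycans of the inner shell fell as well. Levels of cpg-1 were 692, 694 and 698 CPM in C01A2.5 libraries, against 2046, 2183 and 2319.6 CPM in L4440_ZK libraries (-1.66 ± 0.068). For cpg-2 they were 1142, 1218 and 1291 CPM in C01A2.5 libraries and 3322, 3480.3 and 3703 CPM in L4440_ZK libraries (-1.53 ± 0.064). The other proteoglycan gene of the set, cpg-3, had 296, 314 and 307 CPM in the C01A2.5 group, against 961, 935 and 919 CPM in the L4440_ZK group, a log2 fold change of -1.63 ± 0.055 (edgeR adjusted p = 1.72e-22). The 3 treated values of each gene lay close together, and none came near a control. The chitin-binding vitelline layer gene cbd-1 had 1187, 1253 and 1239.9 CPM in C01A2.5 libraries, against 3336, 3630.1 and 3620.1 CPM in L4440_ZK libraries (-1.53 ± 0.074). Last in this role, egg-6, which codes for a leucine-rich repeat protein of extracellular matrices, had 269, 298 and 303 CPM in C01A2.5 libraries and 723, 771 and 790.2 CPM in L4440_ZK libraries (-1.40 ± 0.061).

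The vitelline layer genes perm-2 and perm-4 moved the other way. Their products bind CBD-1 in the outer shell and help to close the permeability barrier of the embryo. Transcripts of perm-2 (WBGene00016636) stood at 2209.8, 2296 and 2265 CPM in C01A2.5 libraries, against 1117, 1169.8 and 1252 CPM in L4440_ZK libraries, a log2 fold change of 0.93 ± 0.059 (edgeR adjusted p = 2.14e-15). Those of perm-4 (WBGene00016638) stood at 2586, 2711 and 2704 CPM in C01A2.5 libraries, against 1257, 1363 and 1473 CPM in L4440_ZK libraries, a log2 fold change of 0.96 ± 0.066 (edgeR adjusted p = 1.6e-14). Both genes were higher in all 3 treated libraries than in any control, while cbd-1, whose product they bind, was lower in all 3. On the scale per kilobase, perm-2 at 3067 ± 59.1 and perm-4 at 2411 ± 63.6 CPM per kb were the most abundant members in C01A2.5 libraries, ahead of cey-2 at 883 ± 56.4.

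These genes are transcribed away from each other. In the build WBcel235, perm-4 lies on the minus strand at chromosome IV:1121494-1125107 and perm-2 on the plus strand at IV:1126790-1128865, with 1682 bases between them. In C01A2.5 animals 51.7% of all genes tested rose and 36.4% fell. Of the 7 other genes tested within 20000 bases of the pair, 5 rose and 1 fell, too few to read a regional change. Those that rose included the neighbours srx-13 (4.65 ± 0.53) and ost-1 (1.46 ± 0.061), and cox-18 fell (-0.66 ± 0.078). The last 25 exon bases of perm-2 overlap C44B12.6 on the opposite strand, which rose by 2.65 ± 0.30, and without strand information their reads cannot be told apart there, whereas perm-4 overlaps no other gene's exons.

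**Figure D2:**
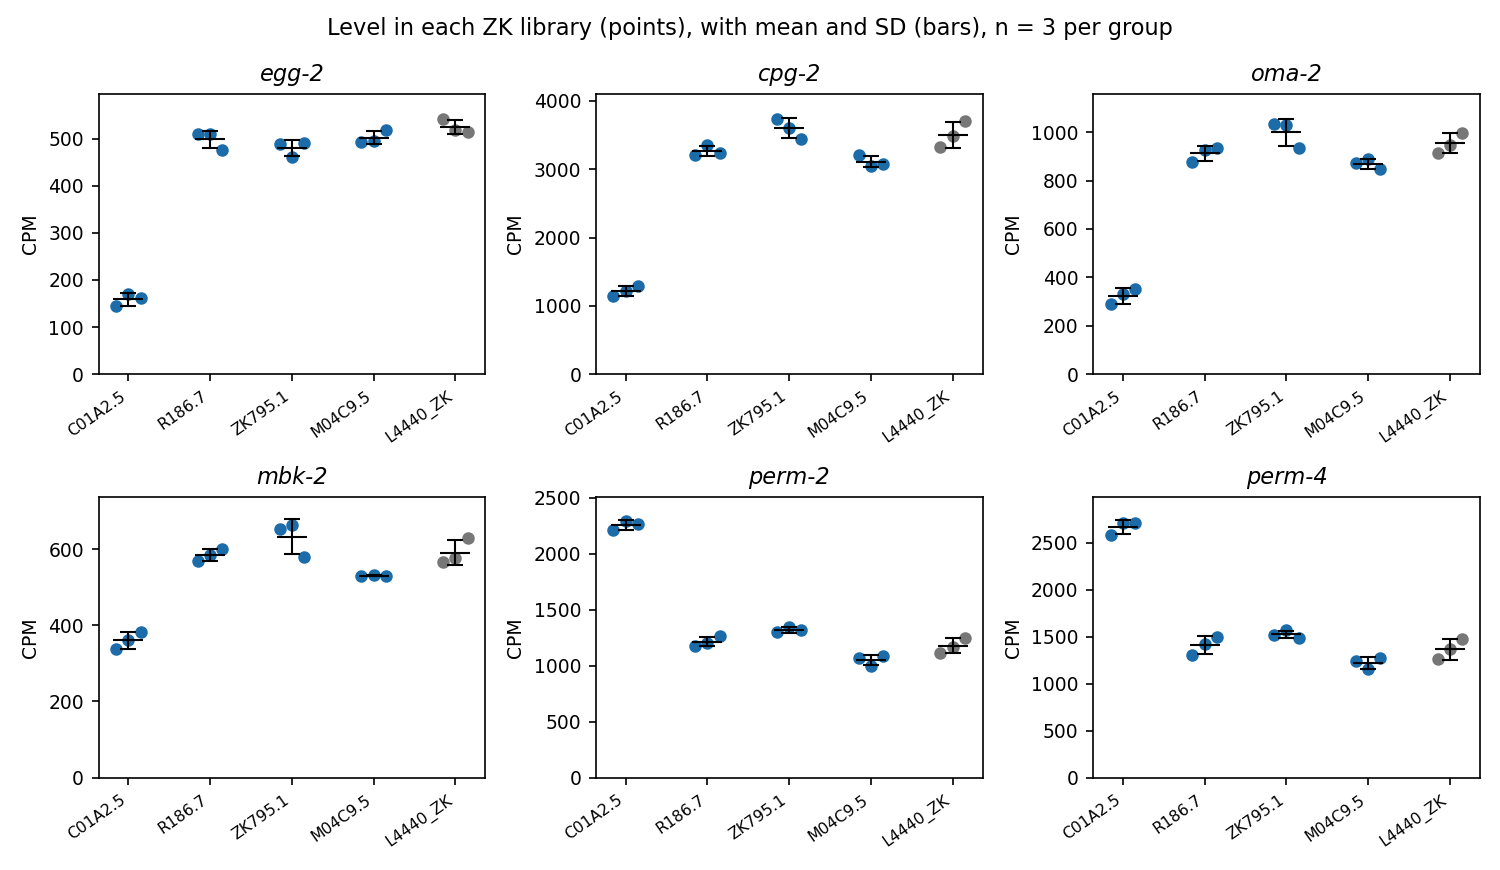
CPM (y axis, from 0) of 6 of the genes in each of the 15 ZK libraries (points), grouped by treatment on the x axis, with the mean and SD of each group (bars, n = 3). The C01A2.5 points lie below all other groups for egg-2, cpg-2, oma-2 and mbk-2, and above all other groups for perm-2 and perm-4, where they reach 2296 and 2711 CPM.

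All 4 egg activation genes fell in C01A2.5 animals. The pseudophosphatases EGG-3, EGG-4 and EGG-5 hold the kinase MBK-2 at the oocyte cortex until the meiotic divisions, after which it marks oocyte proteins for destruction. The levels of egg-5 were 44.3, 47.9 and 48.0 CPM in C01A2.5 libraries, against 125, 134 and 135 CPM in L4440_ZK libraries, a log2 fold change of -1.50 ± 0.051 (edgeR adjusted p = 2.07e-22). Its near-identical copy egg-4 had 55.6, 55.6 and 56.5 CPM in C01A2.5 libraries and 122, 128 and 136 CPM in L4440_ZK libraries (-1.22 ± 0.050), and egg-4 and egg-5 may share reads. For egg-3 the values were 97.7, 112.99 and 107 CPM in C01A2.5 libraries, against 277, 266 and 272 CPM in L4440_ZK libraries (-1.37 ± 0.053). The kinase gene itself moved least of the 31 that fell: mbk-2 had 339, 361 and 382 CPM in C01A2.5 libraries, against 566, 578 and 629.9 CPM in L4440_ZK libraries (-0.72 ± 0.060).

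The yolk receptor gene rme-2, whose product brings yolk into the growing oocyte, had 515, 535 and 548 CPM in C01A2.5 libraries, against 1423, 1587 and 1594 CPM in L4440_ZK libraries (-1.54 ± 0.063). The yolk itself is made in the intestine, and its 6 vitellogenin genes did not follow: 5 of 6 rose and 0 fell, although under relative log expression scaling 4 rose and 1 fell. Their summed level was 53883 to 78161 CPM in C01A2.5 libraries, against 41460 to 44299 CPM in L4440_ZK libraries. With the scaling of the main fit, the median log2 fold change of the 6 vitellogenin genes was 0.63 and the lowest 0.0084, beside a median of 0.42 over all genes.

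All 7 oocyte RNA regulators were lower. The zinc-finger proteins OMA-1 and OMA-2 act together in oocyte maturation, and oma-2 had 288, 331 and 353 CPM in C01A2.5 libraries, against 915, 949 and 997 CPM in L4440_ZK libraries (-1.57 ± 0.066). Its paralog oma-1 had 215, 237 and 252 CPM in C01A2.5 libraries, against 521, 544 and 574 CPM in L4440_ZK libraries (-1.23 ± 0.063). The Pumilio family genes puf-5 and puf-11 repress maternal messages in late oocytes. Levels of puf-5 reached 439, 476 and 494 CPM in C01A2.5 libraries, against 1126, 1187 and 1234 CPM in L4440_ZK libraries (-1.34 ± 0.062). Those of puf-11 reached 234, 258 and 265 CPM in C01A2.5 libraries, against 549.7, 551 and 602 CPM in L4440_ZK libraries (-1.18 ± 0.063). For lin-41, a TRIM-NHL protein that keeps growing oocytes from maturing early, the values were 307, 310.2 and 306 CPM in C01A2.5 libraries and 630.2, 694 and 693 CPM in L4440_ZK libraries (-1.14 ± 0.064). The treated libraries of lin-41 hardly differed among themselves. The Y-box genes fell furthest in this role, with 827, 928 and 924 CPM of cey-2 in C01A2.5 libraries, against 2662, 2777 and 2772 CPM in L4440_ZK libraries (-1.63 ± 0.062). For cey-3 the libraries held 407, 454 and 429 CPM with C01A2.5 RNAi, against 1346, 1369.8 and 1271 CPM in L4440_ZK (-1.64 ± 0.065).

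All 10 early embryo regulators were lower as well. Deepest was nos-2, a Nanos homolog needed in primordial germ cells, with 45.7, 56.1 and 48.98 CPM in C01A2.5 libraries, against 161, 157 and 151.83 CPM in L4440_ZK libraries (-1.65 ± 0.062). Over 154 exon bases it overlaps him-14, which fell by less in the same libraries (-0.89 ± 0.058). The germ granule gene meg-1 stood at 104, 112 and 126 CPM in C01A2.5 libraries, against 290.3, 298 and 300.2 CPM in L4440_ZK libraries (-1.39 ± 0.061). The RNA-binding fate regulators spn-4 and pos-1, which act on maternal messages of the blastomeres, gave similar values. In C01A2.5 libraries spn-4 had 485, 572 and 587 CPM, against 1399, 1389 and 1501 CPM in L4440_ZK libraries (-1.39 ± 0.070). In the same comparison pos-1 had 516, 602 and 617 CPM in C01A2.5 libraries and 1376, 1403 and 1515 CPM in L4440_ZK libraries (-1.32 ± 0.069).

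The polarity genes mex-5 and mex-6 code for zinc-finger proteins that form the soma-to-germline gradient of the zygote. Their transcripts differed in depth of fall, with 314, 356 and 376 CPM of mex-6 in C01A2.5 libraries, against 824, 810.0 and 873 CPM in L4440_ZK libraries (-1.27 ± 0.063). For mex-5 the values were 613, 649 and 671 CPM in C01A2.5 libraries, against 1128, 1207 and 1311 CPM in L4440_ZK libraries (-0.93 ± 0.062), the smallest fall of this role. The difference between the paralogs was not tested, and they may share reads. The adaptor gene zif-1, which sends germline zinc-finger proteins to degradation in somatic blastomeres, had 72.6, 80.7 and 80.5 CPM in C01A2.5 libraries, against 170.1, 175 and 183 CPM in L4440_ZK libraries (-1.19 ± 0.056). One of the proteins it removes is encoded by pie-1, a repressor of transcription in germline blastomeres, at 63.4, 67.5 and 69.7 CPM in C01A2.5 libraries and 139.8, 138 and 158 CPM in L4440_ZK libraries (-1.13 ± 0.057). The blastomere identity genes mex-1 and mex-3 closed the list, and for mex-1 the libraries had 193, 207 and 224 CPM in the C01A2.5 group, against 421, 436 and 467 CPM in the L4440_ZK group (-1.10 ± 0.060). For mex-3 they had 330.0, 334 and 343 CPM in the C01A2.5 group, against 656, 680.1 and 751 CPM in the L4440_ZK group (-1.06 ± 0.059). Adjusted p-values over the 10 genes ran from 9.01e-21 to 9.71e-15 (edgeR).

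Other genes of the same stages mostly fell with the set. Of 48 other oocyte and early embryo regulators 47 fell and 1 rose, with a median log2 fold change of -0.87 and meg-4 (-1.42 ± 0.055), meg-3 (-1.41 ± 0.055) and puf-8 (-1.22 ± 0.049) at the smallest p. Of 23 permeability barrier and proteoglycan genes 19 fell and 3 rose, led by sqv-7 (-1.45 ± 0.048), a sugar transporter of chondroitin synthesis. Of 30 genes of the mitotic germ line and meiosis all 30 fell, and 29 did so with scaling by library totals. Among 33 partners of meiotic maturation and egg activation 24 fell and 8 rose, and the rises included the sperm genes spe-11 (8.03 ± 0.13) and fog-3 (4.64 ± 0.14). Of 21 tested genes that are transcribed from the embryo's own genome 11 fell and 6 rose. The falls were thus not limited to the 33 members, in a comparison where 36.4% of all genes were lower. The oocyte regulator and germ line lists share glp-1, gld-1, pgl-1, glh-1 and nos-3. All lists were chosen with earlier results of these data known.

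Markers of other cell types moved in the same libraries, where 51.7% of all genes tested rose and 36.4% fell. All 43 sperm genes rose, with summed levels of 5038 to 5630 CPM in C01A2.5 libraries, against 22.5 to 31.1 CPM in L4440_ZK libraries, where 2 of the 43 had no counts. Muscle genes rose in 15 of 16 cases and summed to 1945 to 2150 CPM in C01A2.5 libraries, against 1254 to 1294 CPM in L4440_ZK libraries, and under relative log expression scaling 13 rose and 1 fell. Neuron genes rose in 18 of 19 cases and summed to 419 to 457 CPM in C01A2.5 libraries, against 298 to 321 CPM in L4440_ZK libraries, and under that scaling 18 rose and 1 fell. Of 12 markers of the gonadal sheath and spermatheca 7 rose and 3 fell, among the last the oocyte gap junction genes inx-14 (-1.17 ± 0.051) and inx-22 (-1.32 ± 0.052). In the main fit the log2 fold changes had a median of 0.67 over muscle genes and 1.13 over neuron genes, beside 0.42 transcriptome-wide. The part of these cell types in the result was not tested.

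The same 31 falls and 2 rises were obtained with every scaling, tool and set of libraries tried, and also when the C01A2.5 libraries were set against the mean of the R186.7, ZK795.1 and M04C9.5 groups instead of the controls (90.1% of all genes called, 52.6% higher and 37.5% lower). Relative log expression factors moved the median of all genes by -0.23 and library totals by 0.24, and the median of the 33 genes was -1.61 and -1.15 under them.

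With F55H2.6 RNAi 26 of the 33 genes fell and 0 rose with edgeR, while 27 had an unadjusted p under 0.05 and DESeq2 called 27 lower. F55H2.6 is clu-1, a conserved gene whose homologs act in the placement of mitochondria. The median log2 fold change of the 33 genes was -0.32, with a range of -0.51 for cey-2 to 0.037 for perm-4. Their summed level was 23533, 25275 and 21608 CPM in F55H2.6 libraries, against 29334, 27858 and 30750 CPM in L4440_RM libraries, so the groups did not overlap. Across the transcriptome 18.9% of the 15795 genes tested passed, 10.4% in the higher and 8.54% in the lower direction, and the median of all genes was 0.039. By role the falls were 7 of 11 for the eggshell, 4 of 4 for egg activation, the yolk receptor, 6 of 7 oocyte RNA regulators and 8 of 10 early embryo regulators.

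The smallest p belonged to cey-2, one of the Y-box genes that package stored maternal RNA. It had 1641, 1599 and 1427 CPM in F55H2.6 libraries, against 2256, 2139.7 and 2214 CPM in L4440_RM libraries, a log2 fold change of -0.51 ± 0.074 (edgeR adjusted p = 0.000264). Its paralog cey-3 had 879, 738 and 674 CPM in F55H2.6 libraries and 952, 923 and 913 CPM in L4440_RM libraries (-0.30 ± 0.088). For cey-3 the treated replicate 1 lay closest to the controls, but the groups did not overlap. The maturation gene oma-2 had 601, 682 and 599.6 CPM in F55H2.6 libraries, against 901, 801 and 874 CPM in L4440_RM libraries, a log2 fold change of -0.47 ± 0.075 (edgeR adjusted p = 0.000725). For oma-1 the libraries held 366, 438 and 386 CPM with F55H2.6 RNAi, against 555, 494 and 562 CPM in L4440_RM (-0.45 ± 0.081). Levels of puf-11 were 469, 511 and 485 CPM in F55H2.6 libraries, against 596, 556 and 633 CPM in L4440_RM libraries (-0.30 ± 0.059). Those of puf-5 were 898, 1083 and 929 CPM in F55H2.6 libraries, against 1206, 1066 and 1189 CPM in L4440_RM libraries (-0.26 ± 0.083), where 1 treated library lay above the lowest control. In the case of lin-41 the libraries overlapped too, and its change of -0.22 ± 0.11 did not pass (edgeR adjusted p = 0.189).

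In the shell, chs-1 had 562, 563 and 527 CPM in F55H2.6 libraries, against 769, 721 and 706 CPM in L4440_RM libraries, a log2 fold change of -0.42 ± 0.067 (edgeR adjusted p = 0.000602). The sperm entry gene egg-1 had 789, 809 and 756 CPM in F55H2.6 libraries, against 1041, 982 and 1003 CPM in L4440_RM libraries, a log2 fold change of -0.38 ± 0.065 (edgeR adjusted p = 0.00121). For egg-2 the values were 377, 324 and 295 CPM in F55H2.6 libraries and 419, 390.3 and 406 CPM in L4440_RM libraries (-0.30 ± 0.081). In all 3 genes each treated library lay below each control. The proteoglycan gene cpg-1 had 1368, 1339.5 and 983 CPM in F55H2.6 libraries, against 1604, 1742 and 1838 CPM in L4440_RM libraries (-0.50 ± 0.15), with replicate 3 well below the other treated libraries. Levels of cpg-2 were 2232, 2417 and 2052 CPM in F55H2.6 libraries, against 2999, 2852 and 3091 CPM in L4440_RM libraries (-0.43 ± 0.085). For cpg-3 they were 635, 522 and 508 CPM in F55H2.6 libraries, against 698, 688 and 672 CPM in L4440_RM libraries (-0.32 ± 0.099). The matrix gene egg-6 also fell, with 478, 547 and 418 CPM in F55H2.6 libraries, against 651, 623 and 705 CPM in L4440_RM libraries (-0.47 ± 0.10).

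The other 4 eggshell genes did not pass. The vitelline gene cbd-1 had 2132, 2295 and 1559 CPM in F55H2.6 libraries, against 2503, 2557 and 2739 CPM in L4440_RM libraries (-0.39 ± 0.15, edgeR adjusted p = 0.0858). Its groups did not overlap, but replicate 3 of the treated group lay far below the other 2. For gna-2 the log2 fold change was -0.074 ± 0.081, for perm-2 0.022 ± 0.11 and for perm-4 0.037 ± 0.10. The libraries of these 3 genes overlapped between the groups, and their fold changes were the 3 highest of the set.

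**Figure D3:**
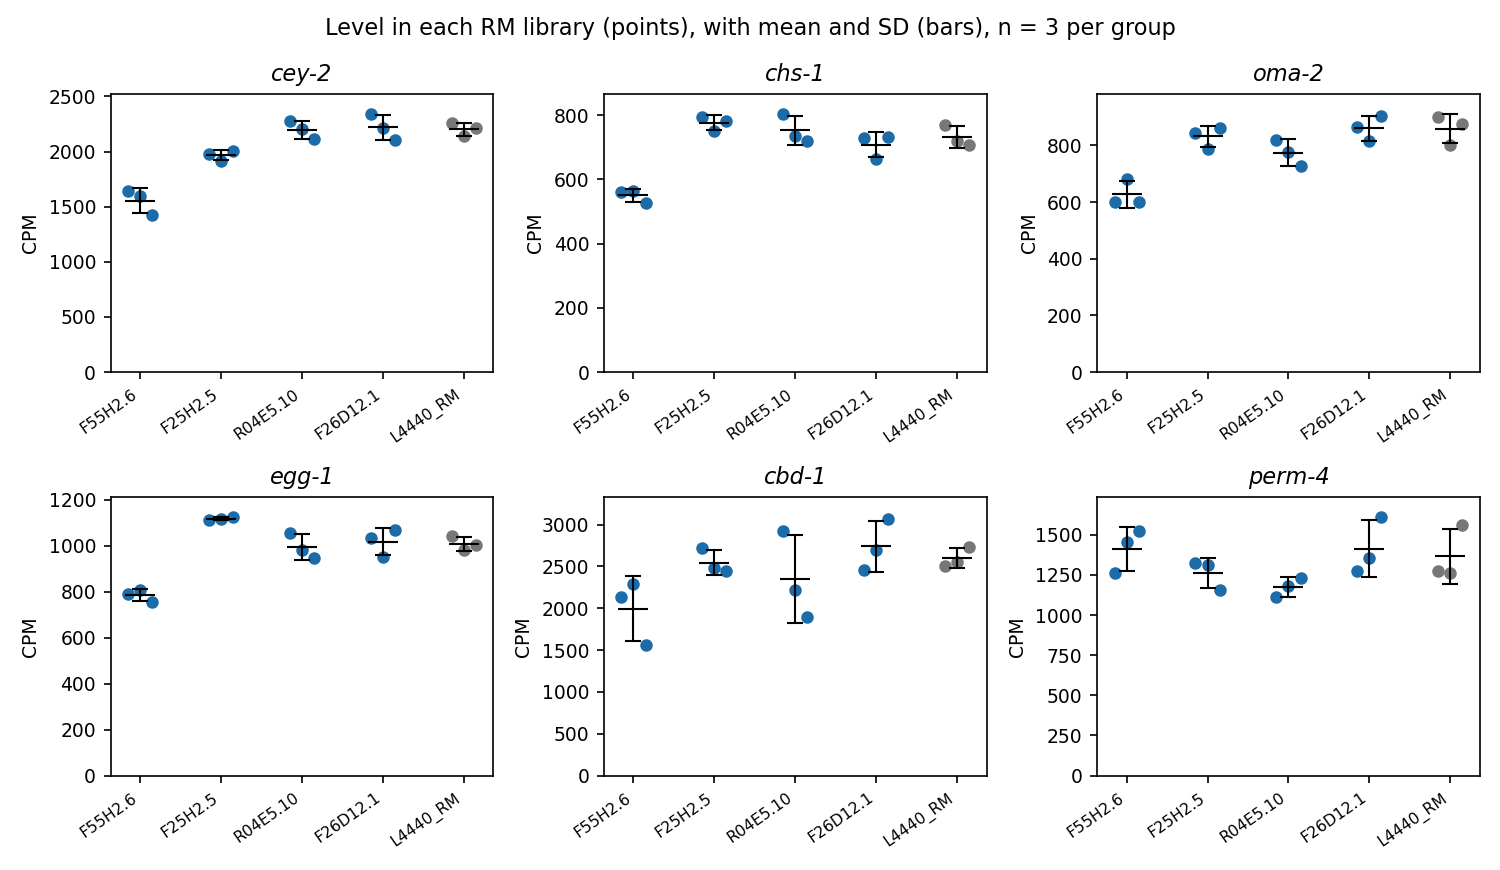
CPM (y axis, from 0) of 6 of the genes in each of the 15 RM libraries (points), grouped by treatment on the x axis, with the mean and SD of each group (bars, n = 3). For cey-2, chs-1, oma-2 and egg-1 the 3 F55H2.6 points lie below the 3 L4440_RM points, cbd-1 has 1 low F55H2.6 library at 1559 CPM, and perm-4 overlaps between the groups.

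All 4 egg activation genes fell with F55H2.6 RNAi. The pseudophosphatase gene egg-5 had 81.2, 93.1 and 75.9 CPM in F55H2.6 libraries, against 110.4, 105 and 119.7 CPM in L4440_RM libraries (-0.43 ± 0.075). Its copy egg-4 had 90.7, 106 and 87.3 CPM in F55H2.6 libraries, against 122, 114 and 133 CPM in L4440_RM libraries (-0.39 ± 0.082). Treated and control libraries were apart for both. Values of egg-3 were 225, 195 and 196 CPM in F55H2.6 libraries, against 260.4, 236 and 249 CPM in L4440_RM libraries (-0.29 ± 0.064). The kinase gene mbk-2 had 441, 502 and 423 CPM in F55H2.6 libraries, against 562, 518 and 612 CPM in L4440_RM libraries (-0.32 ± 0.087), so that here its change was of the same order as those of its partners. The yolk receptor gene rme-2 stood at 954, 1058 and 771 CPM in F55H2.6 libraries, against 1194, 1194 and 1281 CPM in L4440_RM libraries (-0.41 ± 0.11, edgeR adjusted p = 0.017). The yolk protein genes fell in 3 of 6 cases, among them vit-4 (-0.58 ± 0.12), and summed to 29615 to 37229 CPM in F55H2.6 libraries, against 35371 to 42690 CPM in L4440_RM libraries. Of the 6, 4 also fell in the libraries labelled R04E5.10 and 2 with F25H2.5. Against the mean of the F25H2.5, R04E5.10 and F26D12.1 groups their median log2 fold change was 0.012 in F55H2.6 libraries, and 0 passed.

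Of the early embryo regulators, spn-4 had the largest fall, with 1063, 1156 and 1025 CPM in F55H2.6 libraries, against 1482, 1307 and 1525 CPM in L4440_RM libraries (-0.42 ± 0.083). The zinc-finger gene pos-1 had 1150.5, 1269.9 and 1144 CPM in F55H2.6 libraries, against 1558, 1336 and 1583 CPM in L4440_RM libraries (-0.34 ± 0.084). The germ cell gene nos-2 had 99.0, 95.0 and 85.9 CPM in F55H2.6 libraries, against 120.1, 103 and 123 CPM in L4440_RM libraries (-0.32 ± 0.080). For pie-1 the values were 109, 124 and 101 CPM in F55H2.6 libraries, against 138, 128 and 161 CPM in L4440_RM libraries (-0.36 ± 0.10). The adaptor gene zif-1 had 130.2, 153 and 132 CPM in F55H2.6 libraries, against 181, 152.31 and 196 CPM in L4440_RM libraries (-0.36 ± 0.11), and its highest treated library lay just above the lowest control. The polarity gene mex-6 had 697, 738 and 676 CPM in F55H2.6 libraries, against 826, 782 and 847 CPM in L4440_RM libraries (-0.23 ± 0.066). For its paralog mex-5 the groups overlapped and the change of -0.22 ± 0.13 did not pass (edgeR adjusted p = 0.258). The last of the called genes were close to the threshold. Values of mex-1 were 308, 357 and 280.2 CPM in F55H2.6 libraries, against 375, 366 and 427 CPM in L4440_RM libraries (-0.32 ± 0.11, edgeR adjusted p = 0.0467). Values of mex-3 were 557, 637 and 516 CPM in F55H2.6 libraries, against 699.7, 627 and 731 CPM in L4440_RM libraries (-0.28 ± 0.094, edgeR adjusted p = 0.0497), and they overlapped. The germ granule gene meg-1 did not pass (-0.14 ± 0.078, edgeR adjusted p = 0.23).

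The count of falls with F55H2.6 rested in part on single libraries. It was 11 without F55H2.6 replicate 3, 13 without L4440_RM replicate 1 and 14 without L4440_RM replicate 3, and 16 when L4440_RM replicate 3 and F26D12.1 replicate 3 were both left out. It was 6 with replicates 1 and 2 alone and 17 with scaling by library totals, and in each of these fits 0 members rose. Among all genes the split of calls itself depended on the scaling, with 1638 higher and 1349 lower with trimmed-mean scaling, 1337 higher and 1869 lower with relative log expression factors, and 2326 higher and 545 lower with library totals. Against the mean of the F25H2.5, R04E5.10 and F26D12.1 groups, which leaves the controls out, 27 members were lower in F55H2.6 libraries and 0 higher. This count was 18 without F55H2.6 replicate 3, 23 without F55H2.6 replicate 1 and 26 without F26D12.1 replicate 3. Leaving out each library of these groups in turn gave 18 to 28, and library totals gave 22. Of all genes 29.4% were called in this contrast, 14.4% higher and 15% lower. These were 2281 higher and 2370 lower, or 3394 and 1182 with library totals and 1738 and 3115 with relative log expression factors.

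Of the other oocyte and embryo lists, 3 had falls and no rises with F55H2.6, and 2 were mixed, beside 10.4% of all genes higher and 8.54% lower. Of 48 other oocyte and early embryo regulators 21 fell and 0 rose, led by the P granule gene pgl-1 (-0.43 ± 0.062). Of 30 genes of the mitotic germ line and meiosis 12 fell and 0 rose, and of 23 permeability barrier and proteoglycan genes 8 fell and 0 rose, with cpg-4 (-0.41 ± 0.058) first. With library totals these counts were 8, 7 and 5, and 1 of the 30 germ line genes rose. Of 33 partners of meiotic maturation and egg activation 12 fell and 3 rose, the sperm-fate gene fog-3 (1.04 ± 0.16) among them, but 3 fell and 4 rose with library totals. Of 21 tested genes transcribed from the embryo's own genome 3 rose and 1 fell. Their median log2 fold change was 0.25, opposite in sign to that of the 33 members. It was 0.18 in the libraries labelled R04E5.10, where 0 passed. Sums over the 29 genes of that list overlapped, with 309 to 341 CPM in F55H2.6 and 288 to 323 CPM in L4440_RM libraries. Sperm markers stood at 87.3 to 119.7 CPM in sum in F55H2.6 libraries, against 69.6 to 95.5 CPM in L4440_RM libraries, and 1 of 41 tested, spe-41, rose (1.86 ± 0.13). Muscle markers summed to 1275 to 1687 CPM in F55H2.6 libraries, against 1800 to 2295 CPM in L4440_RM libraries. With edgeR 0 of the 16 passed, 8 had an unadjusted p under 0.05, and DESeq2 called 11 lower. The median log2 fold change of the muscle markers was -0.41 with F55H2.6 and -0.46 with F25H2.5. It was -0.50 in the libraries labelled R04E5.10 and -0.040 with F26D12.1. Against the mean of the F25H2.5, R04E5.10 and F26D12.1 groups it was -0.079 in F55H2.6 libraries, and 0 passed. Of 19 neuron markers 3 rose and 0 fell. The part of these cell types in the falls was not tested.

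In the libraries labelled M04C9.5 edgeR called 13 of the 33 genes lower and 0 higher, while 19 had an unadjusted p under 0.05 and DESeq2 called 20 lower. The median log2 fold change was -0.14, and the summed level was 30746, 29911 and 30850 CPM in the libraries labelled M04C9.5, against 32244, 33618 and 34923 CPM in L4440_ZK libraries. Over the transcriptome 19.8% of genes passed, 10.3% in the higher and 9.5% in the lower direction, with a median of -0.0027. Of the 13, 6 were eggshell genes (egg-6, cpg-1, cpg-2, cpg-3, cbd-1 and perm-2) and 5 early embryo regulators (mex-1, mex-3, mex-5, pie-1 and meg-1). The others were rme-2 and lin-41, and 0 of the 4 egg activation genes passed with edgeR. Of those 4, 2 had an unadjusted p under 0.05, and DESeq2 called mbk-2, egg-4 and egg-5 lower.

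The smallest p was that of meg-1, with 228, 242 and 252 CPM in the libraries labelled M04C9.5, against 290.3, 298 and 300.2 CPM in L4440_ZK libraries, a log2 fold change of -0.31 ± 0.059 (edgeR adjusted p = 0.000237). Next was cpg-1, the proteoglycan gene, with 1738, 1631 and 1870.0 CPM in the libraries labelled M04C9.5, against 2046, 2183 and 2319.6 CPM in L4440_ZK libraries (-0.33 ± 0.066, edgeR adjusted p = 0.000386). The KH-domain gene mex-3 had 595, 551 and 598 CPM in the libraries labelled M04C9.5, against 656, 680.1 and 751 CPM in L4440_ZK libraries (-0.27 ± 0.058, edgeR adjusted p = 0.000964). The groups were apart for all 3 genes. The polarity gene mex-5 had 999, 961 and 1049.5 CPM in the libraries labelled M04C9.5, against 1128, 1207 and 1311 CPM in L4440_ZK libraries (-0.28 ± 0.062, edgeR adjusted p = 0.000996). The other 9 that fell had log2 fold changes between -0.28 for cbd-1 and -0.17 for cpg-3.

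Yolk protein genes fell in all 6 cases in the libraries labelled M04C9.5, led by vit-3 (-1.62 ± 0.11) and vit-4 (-1.51 ± 0.099), and their sum was 19541 to 24239 CPM there, against 41460 to 44299 CPM in L4440_ZK libraries. The oocyte's receptor for yolk, rme-2, had 1291, 1289 and 1341 CPM in the libraries labelled M04C9.5, against 1423, 1587 and 1594 CPM in L4440_ZK libraries (-0.24 ± 0.062, edgeR adjusted p = 0.0052). Of all genes 10.3% were higher and 9.5% lower in this comparison, and the counts of the next lists are read beside these shares. Of 21 tested genes transcribed by the embryo itself 6 rose and 0 fell, among them tbx-8 (0.96 ± 0.12) and elt-1 (0.40 ± 0.070). In RNA of whole animals, the cells in which these genes changed cannot be told. Of 48 other oocyte and early embryo regulators 12 fell and 3 rose, and of 30 germ line and meiosis genes 1, him-8, fell (-0.18 ± 0.055). Sperm markers summed to 25.19 to 37.98 CPM in the libraries labelled M04C9.5 and 22.5 to 31.1 CPM in L4440_ZK libraries, with 1 and 2 of the 43 at no counts, and muscle genes fell in 7 and rose in 2 of 16 cases. Their part in the result was not tested.

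The count for the libraries labelled M04C9.5 depended on the settings. It was 20 with relative log expression factors and with DESeq2, 8 with library totals, 7 without M04C9.5 replicate 2 and 2 when all 30 libraries shared an estimate of the spread, with 0 members higher in each. Those 2 were meg-1 and mex-3. Over all genes the calls were 1692 higher and 1567 lower with trimmed-mean scaling, 1446 higher and 2776 lower with relative log expression factors, and 2676 higher and 782 lower with library totals.

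F55H2.6 and M04C9.5 were compared with separate controls, so their lists can be set side by side. The genes that fell in both were cpg-1, cpg-2, cpg-3, egg-6, rme-2, mex-1, mex-3 and pie-1, 8 in all, which is 30.8% of the 26 that fell with F55H2.6 and 61.5% of the 13 that fell in the libraries labelled M04C9.5. In the libraries labelled M04C9.5, 30 of the 33 members had negative log2 fold changes. The 3 positive ones were near 0, with 0.011 ± 0.060 for cey-2, 0.041 ± 0.064 for chs-1 and 0.0049 ± 0.062 for egg-1. These 3 were among the 26 that fell with F55H2.6. Of the 13 that fell in the libraries labelled M04C9.5, cbd-1, lin-41, meg-1, mex-5 and perm-2 did not pass with F55H2.6. Since 26 of the 33 members fell with F55H2.6, shared genes are common whichever 13 are taken, and nothing is read from the overlap. Whether these effects differ was not tested.

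**Figure D4:**
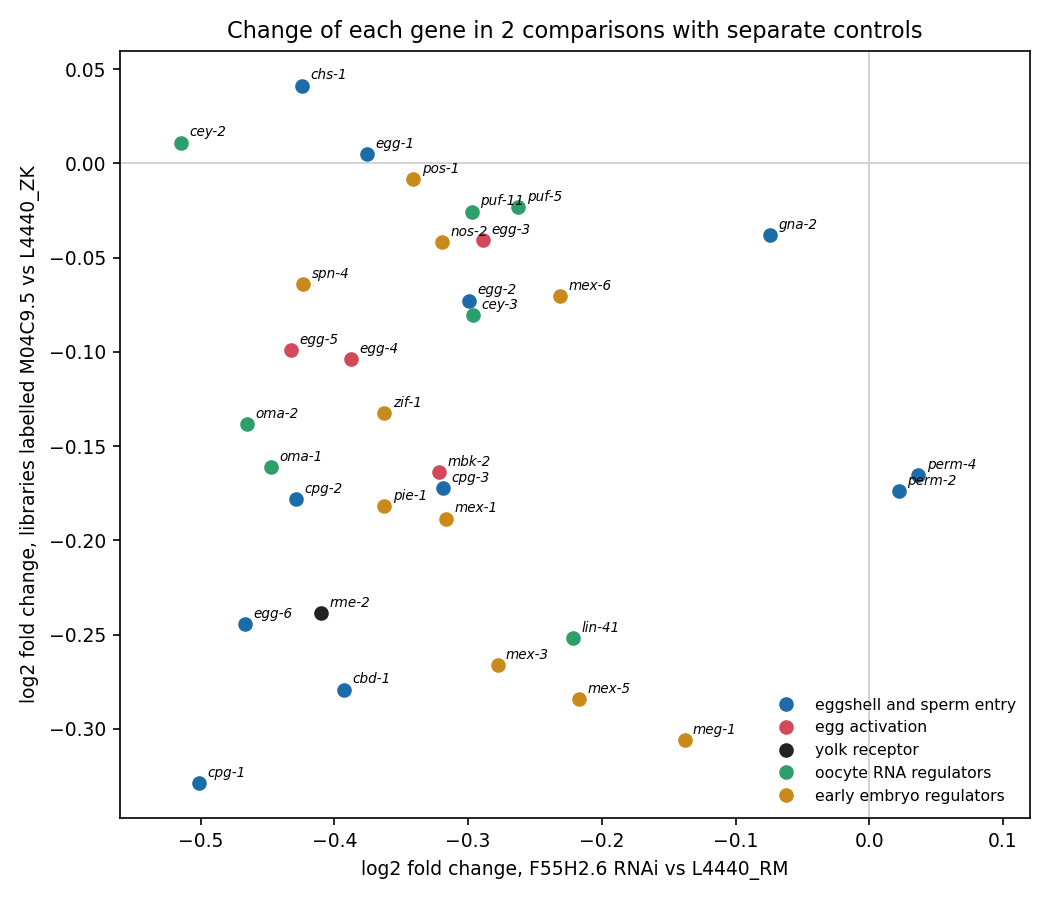
Log2 fold change of each gene with F55H2.6 RNAi against L4440_RM (x axis) and in the libraries labelled M04C9.5 against L4440_ZK (y axis), coloured by role. 28 genes lie below 0 on both axes, cey-2, chs-1 and egg-1 lie below 0 on the x axis and just above 0 on the y axis, and perm-2 and perm-4 lie near 0 on the x axis.

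Among the other treatments, F25H2.5 RNAi gave 1 called member. F25H2.5 is ndk-1, a nucleoside diphosphate kinase, and 8.65% of all genes passed, 5.26% higher and 3.39% lower. The gene was cpg-3, with 920.1, 1034 and 855 CPM in F25H2.5 libraries, against 698, 688 and 672 CPM in L4440_RM libraries, a log2 fold change of 0.44 ± 0.099 (edgeR adjusted p = 0.0119). All treated libraries lay above all controls, but the adjusted p was 0.0803 without F25H2.5 replicate 2, and 0.0458 without L4440_RM replicate 3. Of the 11 eggshell genes 7 had positive and 4 negative log2 fold changes, and of the 4 egg activation genes 3 had positive and 1 a negative one. The smallest adjusted p among those that did not pass were those of egg-3 (0.21 ± 0.063, edgeR adjusted p = 0.0508) and egg-2 (0.25 ± 0.081, edgeR adjusted p = 0.0673). The count was 3 with library totals, 6 in a fit of the 6 libraries alone, of which 5 rose and 1 fell, and 5 in a fit of all 30 libraries (cpg-3, egg-2, egg-3, egg-4 and cpg-2, all higher).

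No member passed with R186.7, ZK795.1 or F26D12.1 RNAi, or in the libraries labelled R04E5.10. With R186.7, the Pinin homolog pnn-1, edgeR called 0 (2.55% of all genes, 1.86% higher and 0.691% lower), 10 had an unadjusted p under 0.05 and DESeq2 called 8. The log2 fold changes ran from -0.21 for cpg-1 to 0.042, with 30 negative and 3 positive. Their median was -0.084, beside 0.0083 over all genes. The smallest p was that of egg-5 at 115, 122 and 116 CPM in R186.7 libraries, against 125, 134 and 135 CPM in L4440_ZK libraries (-0.17 ± 0.049, edgeR adjusted p = 0.06). Without L4440_ZK replicate 1 the count was 6, without R186.7 replicate 2 it was 2, and with relative log expression factors it was 6, all lower. With ZK795.1, the inositol polyphosphate multikinase gene ipmk-1, edgeR called 0 (1.99% of all genes, 1.31% higher and 0.679% lower), 4 had an unadjusted p under 0.05 and DESeq2 called 1. Here 26 of the 33 genes had positive and 7 negative log2 fold changes, with a median of 0.040. Among them perm-2 (0.16 ± 0.058), perm-4 (0.16 ± 0.065) and nos-2 (-0.17 ± 0.059) did not pass (edgeR adjusted p from 0.153 to 0.244 for the 3 genes).

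In the libraries labelled R04E5.10 edgeR called 0 members (2.28% of all genes, 1.56% higher and 0.715% lower), 1 had an unadjusted p under 0.05, which was meg-1, and DESeq2 called 0. The log2 fold changes lay between -0.22 and 0.096, and the count was also 0 without L4440_RM replicate 3. With F26D12.1, the forkhead gene fkh-7, edgeR called 0 (0.00633% of all genes, or 1 gene), 0 had an unadjusted p under 0.05 and DESeq2 called 0. Fold changes of the 33 genes lay between -0.049 and 0.12 there on the log2 scale, in a comparison where the target's own level did not pass either, and the count was also 0 without L4440_RM replicate 3 and without F26D12.1 replicate 3.

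The empty-vector groups differed from each other in some of these genes. With edgeR 14 members were lower in L4440_RM libraries than in L4440_ZK libraries and 0 were higher, 18 had an unadjusted p under 0.05 and DESeq2 called 17 lower, beside 43.8% of all genes called, 23.9% higher and 19.9% lower. The largest difference was that of gna-2, with 213, 185 and 178 CPM in L4440_RM libraries, against 287, 294 and 276 CPM in L4440_ZK libraries, a log2 fold change of -0.57 ± 0.064 (edgeR adjusted p = 2.07e-07). The Y-box gene cey-3 had 952, 923 and 913 CPM in L4440_RM libraries, against 1346, 1369.8 and 1271 CPM in L4440_ZK libraries (-0.52 ± 0.077, edgeR adjusted p = 9.5e-06). For nos-2 the values were 120.1, 103 and 123 CPM in L4440_RM libraries, against 161, 157 and 151.83 CPM in L4440_ZK libraries (-0.44 ± 0.075, edgeR adjusted p = 4.57e-05). The proteoglycan gene cpg-3 had 698, 688 and 672 CPM in L4440_RM libraries, against 961, 935 and 919 CPM in L4440_ZK libraries (-0.45 ± 0.077, edgeR adjusted p = 4.61e-05). The groups did not overlap in any of these 4 genes, and without L4440_RM replicate 3 the count of lower members was 15.

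By role the lower genes were 7 of 11 for the eggshell (gna-2, cpg-3, cbd-1, egg-2, cpg-1, cpg-2 and egg-6), egg-5, rme-2, 3 oocyte RNA regulators (cey-2, cey-3 and lin-41) and 2 early embryo regulators (nos-2 and meg-1). In contrast spn-4 (0.0080 ± 0.078), pos-1 (0.060 ± 0.077) and puf-11 (0.068 ± 0.060) were near 0, and so was perm-4 (0.00086 ± 0.088). Library totals moved the median of all genes by 0.13, and with them 9 members were lower and 3 higher (pos-1, perm-2 and puf-11), while all genes split into 6050 higher and 1751 lower in place of 4023 and 3362. In the same comparison 39 of 43 sperm markers were higher in L4440_RM, with sums of 69.6 to 95.5 CPM in L4440_RM libraries, against 22.5 to 31.1 CPM in L4440_ZK libraries. All 16 muscle markers were higher too, with sums of 1800 to 2295 CPM in L4440_RM libraries, against 1254 to 1294 CPM in L4440_ZK libraries. Prefix, and whatever went with it, cannot be told apart from any other difference between these animals, and the part of these cell types was not tested.

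**Figure D5:**
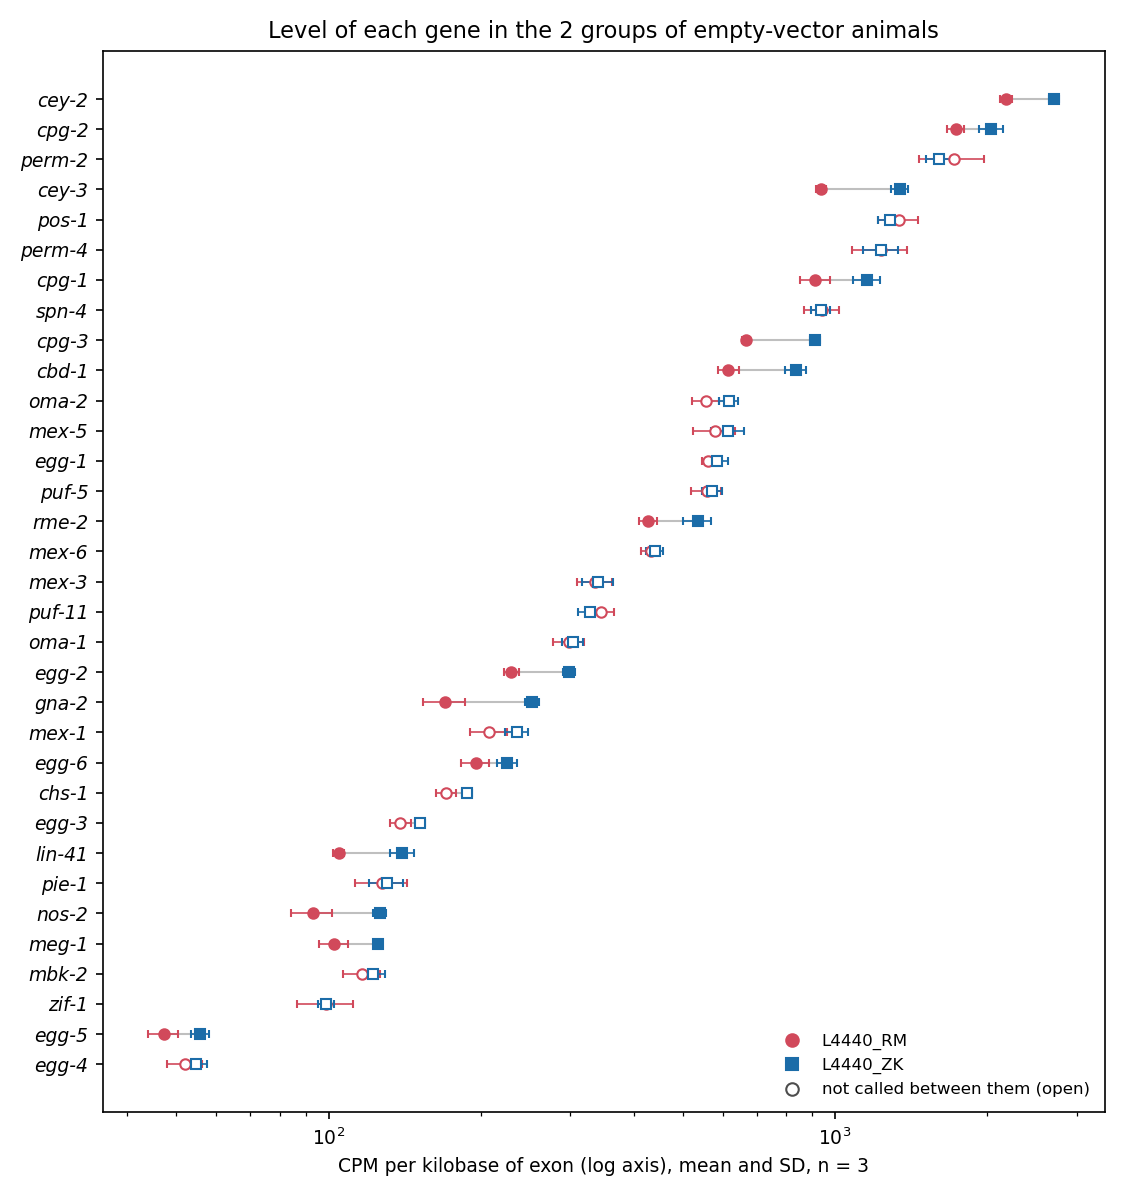
Level of each gene in CPM per kilobase of exon (log x axis, mean and SD, n = 3) in L4440_RM libraries (circles) and L4440_ZK libraries (squares), ordered by the L4440_ZK level. Filled symbols mark the 14 genes called between the groups, all lower in L4440_RM, and levels run from 54.5 CPM per kb for egg-4 to 2707 for cey-2 in L4440_ZK.

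Seen over all groups of a prefix at once, all 33 genes differed somewhere among the 5 ZK groups, where 92.4% of all genes did. Among the 5 RM groups 24 of the 33 differed, against 32.7% of all genes, and 15 did so without F55H2.6 replicate 3, 23 without L4440_RM replicate 3 and 22 without F26D12.1 replicate 3. The members' share of all counts was 1.70% to 1.86% in C01A2.5 libraries, against 3.00% to 3.23% in L4440_ZK libraries. In F55H2.6 libraries it was 2.43% to 2.68%, against 2.85% to 3.09% in L4440_RM libraries. Each C01A2.5 and F55H2.6 library lay below every control of its prefix on this measure, which needs no scaling between libraries beyond the total.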

How the data were processed

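Gene counts were deposited by the authors for 30 libraries, and per the submitters' processing notes bcl2fastq 1.8.4, STAR 2.4.1d, featureCounts 1.4.6-p4 and the build WBcel235 were used. Per the labels' protocols the library kit does not mark strand, and the counting setting for strand and the annotation release are not given in the sources used here. A deposited RPKM table was not used, because its divisors did not follow the library columns. All columns of the count table were matched to libraries.

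Differences were tested with edgeR 4.0.16 (quasi-likelihood, robust, TMM factors, filterByExpr) in R 4.3.3, with the 15 libraries of a prefix in 1 model and all 30 for L4440_RM against L4440_ZK, and Benjamini-Hochberg adjusted p under 0.05 over all genes tested. The standard error is the log2 fold change over the root of the test's F value. CPM are counts over effective library size, with the factors of all 30 libraries. Where the libraries of compared groups are said not to overlap, the share of all genes without overlap was not computed. DESeq2 1.42.0 and other scalings, filters and library sets were alternatives. The code was checked on simulated counts with changes of 1.5-fold and 2-fold. For C01A2.5 against L4440_ZK 88% and 100% of these were recovered, and for F55H2.6 against L4440_RM 55% and 82%. Smaller changes were not simulated, so a gene that did not pass is not shown to be unchanged. The members and gene lists were chosen with earlier results of these data known. The genes named are the members and, from each other list, up to 3 genes with the smallest adjusted p. The labels do not say whether the 3 libraries of a group come from separate cultures, so p-values measure the spread between these libraries, which may be technical. Same-numbered libraries are not stated to share a batch.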

Additional observations from a re-analysis of the deposited data

How the results depend on the processing

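For C01A2.5 the count of 33 called members (31 lower, 2 higher) was the same under every alternative run. Relative log expression factors gave 6 called members for R186.7 and 20 for the libraries labelled M04C9.5. Library totals gave 8 for the libraries labelled M04C9.5, 3 for F25H2.5 and 17 for F55H2.6. Without the filter on low counts R186.7 had 4. DESeq2 gave 8 for R186.7, 1 for ZK795.1 and 20 for the libraries labelled M04C9.5. The 6 libraries compared alone gave 6 for F25H2.5 and 14 for F55H2.6, and a fit of all 30 libraries gave 2 for the libraries labelled M04C9.5 and 5 for F25H2.5. For F55H2.6 there were 6 with RM replicates 1 and 2 alone and 16 without both L4440_RM replicate 3 and F26D12.1 replicate 3, an alternative added after seeing the data. Leaving out each library in turn gave 0 to 6 for R186.7, 0 to 1 for ZK795.1, 7 to 15 for the libraries labelled M04C9.5, 0 to 1 for F25H2.5, 11 to 26 for F55H2.6 and 15 to 27 among the 5 RM groups. The causes were not tested.

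No label says that a number marks a shared batch. Correlations of the deviations of same-numbered libraries ran from -0.37 to 0.26 in the ZK set (median -0.035, 4 of 30 pairs over 0.1) and from -0.27 to 0.67 in the RM set (median 0.11, 17 of 30 pairs over 0.1). In the ZK set 5 of 15 libraries correlated best with their own number and in the RM set 10 of 15, a hint from the data of shared variation there, not from the design. With a replicate block the counts were 33 for C01A2.5, 11 for the libraries labelled M04C9.5, 24 for F55H2.6, 3 for F25H2.5 and 10 for L4440_RM against L4440_ZK. For members that passed in the reported fits, 1022 of 1184 values under an alternative still passed, 162 no longer passed and 0 changed sign. The total hides differences between comparisons, since 429 of the values that still passed were those of C01A2.5. For F55H2.6 283 still passed and 107 did not, and in the libraries labelled M04C9.5 145 did and 37 did not. For L4440_RM against L4440_ZK 151 did and 17 did not, and for F25H2.5 14 did and 1 did not. Members that passed under an alternative alone are not among these values and enter the counts above.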
